A study of Homo sapiens with 4 samples.

Results

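The ephrin ligands are a family of 8 genes, EFNA1 to EFNA5 and EFNB1 to EFNB3, taken by name from a table of 61860 genes measured by RNA-seq. All 8 are in the table, and the family was chosen by the counts of EFNA2, 0 in both control samples and many after treatment. That contrast of EFNA2 is therefore given as a description, with no test. The cells were HT1376, an established bladder cancer line grown in MEM with serum. In 2 samples they received 1 nM enfortumab vedotin (EV) for 48 h, and in 2 samples the control named WFI in the labels for the same time. Enfortumab vedotin is an antibody against nectin-4 that carries the microtubule poison monomethyl auristatin E. By its title, the series asks how EV sensitivity relates to high glucose and YTHDC1 lactylation. Its samples differ by a single label, EV or WFI.

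Ephrins are ligands held on the cell surface that bind Eph receptor tyrosine kinases on the cell next to them. The A class is tied to the membrane by a glycolipid anchor and binds mainly EphA receptors, whereas the B class crosses the membrane and binds mainly EphB receptors. Signals run forward through the receptor and in reverse through the ligand, and they set repulsion, adhesion and boundaries between cells, epithelia included. EPHA2 is widely found at high level in carcinomas, with ephrin-A1 as a main ligand, and EPHB4 is best known as the receptor of ephrin-B2 in vessels.

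Total counts were 19368791 and 20727175 in the EV samples and 19447577 and 19669037 in the WFI samples. Levels are in CPM, counts scaled to library sizes set with TMM, so that higher and lower mean relative to the rest of a library. In bulk RNA, fewer cells with a transcript and less of it per cell cannot be told apart. The labels do not name separate cultures, and p-values thus cover sample to sample spread that could be technical. NECTIN4, the antigen of EV, had 9 and 6 counts in EV and 28 and 29 counts in WFI (log2 fold change -1.76, SE 0.54, edgeR adjusted p = 0.0144), a call lost with DESeq2 and without either WFI sample. Of 14 markers of bladder epithelium, 4 had 10 or more counts in every sample and KRT20 had 0 in all 4; their summed level was 2661 and 2696 CPM in EV and 1157 and 1153 CPM in WFI. Most of that sum came from KRT8, at 1884 and 1899 CPM in EV and 738 and 726 CPM in WFI. KRT18 gave 715 and 732 CPM in EV and 383 and 388 CPM in WFI. Of the 14, 8 were called higher in EV and 0 lower, and the rest were too scarce to test. Over all genes tested, 34.5% were called higher and 31.5% lower. KRT5, TP63, UPK1A and EPCAM had at most 6 counts in any WFI sample. They passed the filter on low counts through their EV counts alone, so their calls add nothing to the count. CDH1, the gene of E-cadherin, was at 0.494 and 0.361 CPM in EV and at 0 and 0.0477 CPM in WFI, so a defining epithelial marker was close to absent. EPCAM and KRT19 were also at no more than 0.286 CPM in WFI, and KRT5 and TP63 at 0 there. KRT5 had 5.32 and 6.905 CPM in EV. GATA3 had 10.04 and 10.05 CPM in EV and 0.773 and 0.906 CPM in WFI. Summed markers of leukocytes, with the red cell gene HBB among them, were 43.1 and 43.3 CPM in EV and 1.55 and 2.29 CPM in WFI. HBB itself gave 0 and 0.206 CPM in EV and 0 in WFI. The pan-leukocyte gene PTPRC, however, stood at no more than 0.464 CPM in any sample. Of these 8 markers, 3 were called higher in EV and 0 lower, and the rest were too scarce to test. The shares over all genes tested were again 34.5% higher and 31.5% lower. ITGAM and CD79A had at most 3 counts in any WFI sample and passed the filter through their EV counts alone. ITGAM had 25.45 and 26.44 CPM in EV and 0.145 and 0.0954 CPM in WFI. CD79A had 9.98 and 7.99 CPM in EV and 0.0966 and 0.0477 CPM in WFI. CD14, the third called, had 7.02 and 7.52 CPM in EV and 1.26 and 2.00 CPM in WFI. Sums were 12.7 and 9.07 CPM in EV and 10.15 and 11.5 CPM in WFI for fibroblasts. For endothelium they were 20.3 and 22.3 CPM in EV and 10.9 and 13.6 CPM in WFI. Neuronal markers summed to 87.4 and 97.5 CPM in EV and 11.45 and 13.4 CPM in WFI, of which TUBB3, a tubulin gene, gave 73.5 and 82.5 CPM in EV and 2.37 and 2.39 CPM in WFI. The part of these marker shifts in the ephrin values was not tested.

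After EV, transcripts of EFNA2 and EFNB2 became the most abundant of the family per kb of annotated exon. Smaller rises of EFNA1 and EFNA3 and falls of EFNA4 and EFNA5 stood beside them. In edgeR's quasi-likelihood test over 17465 genes, with a Benjamini-Hochberg adjusted p under 0.05 as the call, 3 of the 7 ephrins other than EFNA2 were higher in EV, 2 were lower and 2 were not called. The contrast moved much of the transcriptome: 66% of the genes tested were called, 34.5% higher and 31.5% lower, so the count says nothing particular about the family. The 8 ephrins all passed the filter on low counts, EFNA2 through its EV counts alone. The median log2 fold change of the 7 other ephrins was -0.11, against 0.02 over all genes tested. In CPM the EV and WFI samples did not overlap for any of the 7 ephrins other than EFNA2, 3 with EV above and 4 with EV below. The same held for 82.8% of all genes tested, 42.1% with EV above and 40.7% with EV below.

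**Figure D1:**
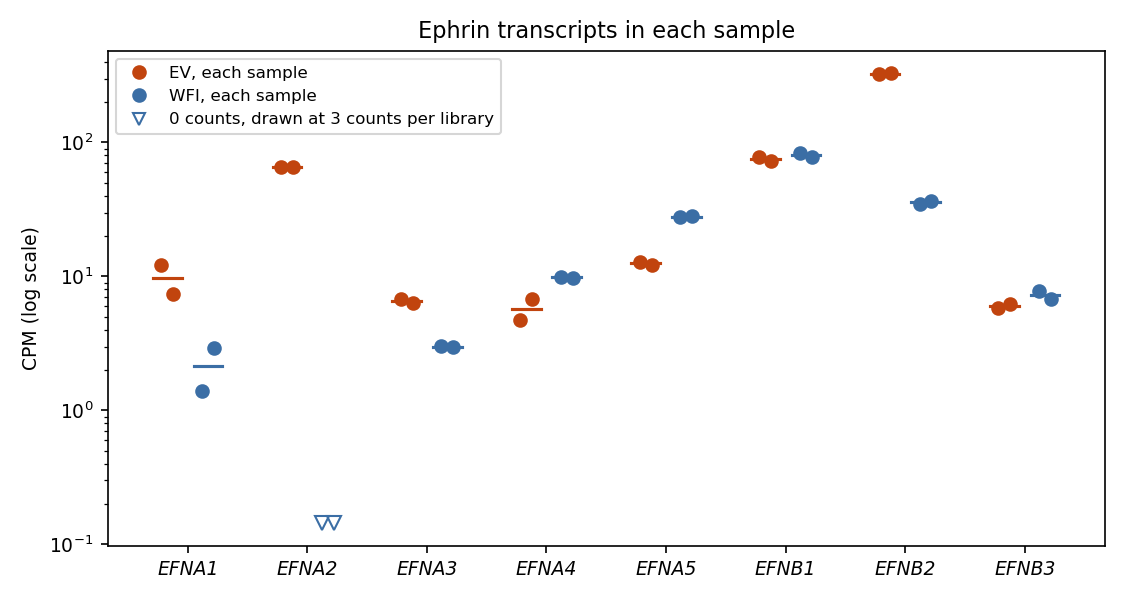
CPM of each ephrin (log scale) in each EV sample (orange, left) and each WFI sample (blue, right), with a line at the mean of 2 samples. Open triangles stand for 0 counts and are drawn at 3 counts per library. EFNA2 and EFNB2 show the widest gaps between the groups, while the EFNB1 points lie close together.

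EFNA2 encodes ephrin-A2, a ligand best known from the guidance of axons to their targets in the brain. It lies on the plus strand of chromosome 19 (chr19:1286154-1300237, GENCODE 29 on GRCh38). The gene had 1198 and 1274 counts in the EV samples and 0 and 0 counts in the WFI samples. Scaled, that was 65.71 and 65.65 CPM in EV and 0 CPM in WFI. The 2 EV samples thus gave nearly the same level, and neither WFI sample had a read. Against a floor of 3 counts per library, EV was at least 456-fold higher, a bound that covers counting error only. Of the genes tested, 382 (2.19%) had 0 counts in both WFI samples, and by their EV level EFNA2 ranked 2 among them, with a median of 1.18 CPM for the set. FRG2B, of a subtelomeric gene family, ranked 1 at 144 CPM in EV. The 382 genes passed the filter on low counts through their EV counts alone. Without that filter, 32055 genes had 0 counts in both WFI samples, with a median of 0 CPM in EV. EFNA2 was chosen for these same values, so its rank is a description only.

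The protein coding genes with profiles most like EFNA2 over the 4 samples were FRG2B, FRG2C and PKD1L3, by Euclidean distance in log2 CPM. Their distances were 1.60, 2.30 and 2.48. FRG2C, of the same family as FRG2B, had 57.4 and 54.7 CPM in EV and 0.0966 and 0 CPM in WFI. FRG2 copies are near-identical, so how reads were split among them is uncertain. PKD1L3, a relative of polycystin-1, had 22.8 and 28.2 CPM in EV and 0 and 0.0477 CPM in WFI. All 3 were near 0 in the WFI samples and clearly present in both EV samples, which follows from how they were picked.

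EFNB2 encodes ephrin-B2, a transmembrane ligand that marks arterial endothelium and also serves as an entry receptor for henipaviruses. It lies on the minus strand of chromosome 13 (chr13:106489731-106535662). It had 5887 and 6380 counts in EV and 722 and 769 counts in WFI, or 322.9 and 328.8 CPM in EV and 34.9 and 36.7 CPM in WFI. Both EV samples stood far above both WFI samples, and replicates differed little. EFNB2 rose 9.11-fold (log2 fold change 3.19, SE 0.05, edgeR adjusted p = 1.16e-12). An antisense transcript annotated across the gene, ENSG00000284966, had 0.658 and 1.75 CPM in EV and 0.821 and 0.620 CPM in WFI. A transcript inside an intron on the gene's own strand, ENSG00000274204, had 0.878 and 0.928 CPM in EV and 0.290 and 0.239 CPM in WFI. How the authors' counting treated reads that these transcripts share with EFNB2 is not known.

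EFNA1 encodes ephrin-A1, first found as a transcript induced by tumour necrosis factor in endothelium. It had 222 and 144 counts in EV and 29 and 61 counts in WFI, or 12.2 and 7.42 CPM in EV and 1.40 and 2.91 CPM in WFI. Replicates were far apart in both groups, yet the lower EV sample was above the higher WFI sample. EFNA1 rose 4.55-fold (log2 fold change 2.18, SE 0.34, edgeR adjusted p = 0.000215), and the log2 fold change was 2.77 without WFI replicate 2. EFNA3, the gene of ephrin-A3, had 123 and 124 counts in EV and 63 and 62 counts in WFI, or 6.75 and 6.39 CPM in EV and 3.04 and 2.96 CPM in WFI. Here replicates lay close together and the groups stood apart. EFNA3 rose 2.19-fold (log2 fold change 1.13, SE 0.23, edgeR adjusted p = 0.00141).

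EFNA4, the gene of ephrin-A4, and EFNA5, the gene of ephrin-A5, an axon guidance ligand, were the ephrins that fell. EFNA5 had 235 and 235 counts in EV and 572 and 592 counts in WFI, or 12.9 and 12.1 CPM in EV and 27.6 and 28.2 CPM in WFI. The EV samples were both well below the WFI samples (log2 fold change -1.16, SE 0.11, edgeR adjusted p = 4.12e-06). EFNA4 had 86 and 131 counts in EV and 205 and 205 counts in WFI, or 4.72 and 6.75 CPM in EV and 9.90 and 9.78 CPM in WFI. Its WFI samples agreed closely while its EV samples did not, and the groups stayed apart (log2 fold change -0.78, SE 0.20, edgeR adjusted p = 0.00607).

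EFNB1, the X-linked gene of ephrin-B1 whose loss causes craniofrontonasal syndrome, was the most abundant ephrin of the WFI samples. It had 77.6 and 72.3 CPM in EV and 83.4 and 78.1 CPM in WFI. The groups were close, with the higher EV sample just under the lower WFI sample (log2 fold change -0.11, SE 0.06, edgeR adjusted p = 0.156). EFNB3, the gene of ephrin-B3, a midline axon guidance ligand, had 5.81 and 6.24 CPM in EV and 7.78 and 6.82 CPM in WFI (log2 fold change -0.28, SE 0.19, edgeR adjusted p = 0.231). Neither was called in that test, which does not show that they were equal. Both were called lower in EV once trends with spliced length and GC content were removed from each library, at log2 fold changes of -0.40 for EFNB1 (edgeR adjusted p = 0.00019) and -0.55 for EFNB3 (0.0256). EFNB1 was also called with no count filter (log2 fold change -0.19, edgeR adjusted p = 0.0269).

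**Figure D2:**
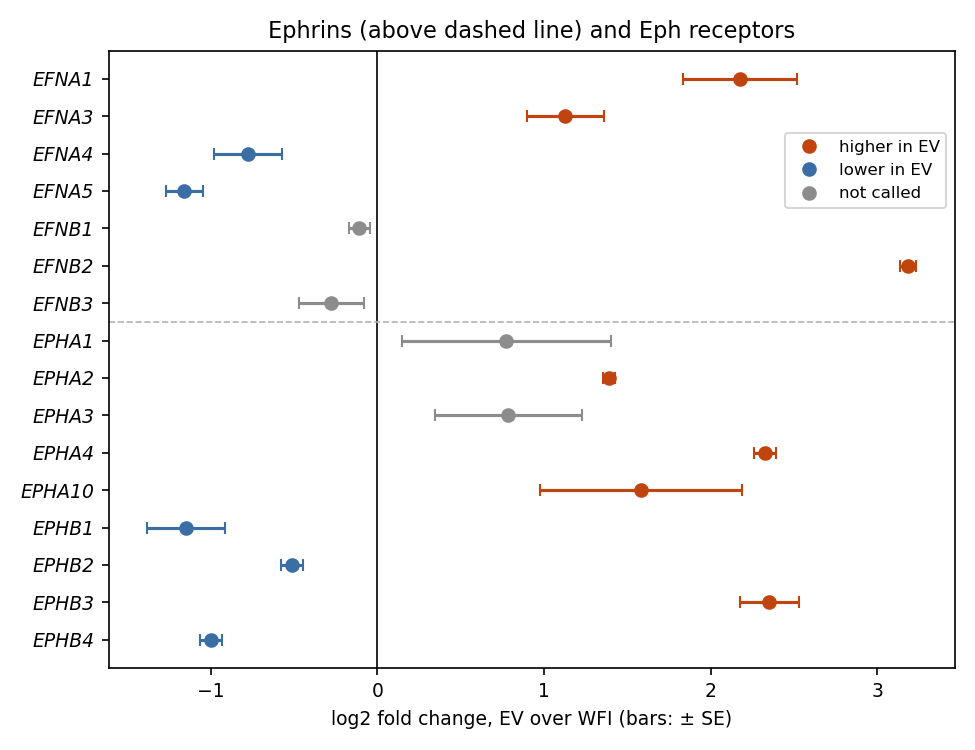
Log2 fold change, EV over WFI, with its standard error, for the 7 ephrins other than EFNA2 and the 9 Eph receptors that passed the filter. Orange points were called higher in EV, blue points lower and grey points were not called; EFNB2 lies farthest to the right at 3.19, and EFNA5 is the lowest ephrin at -1.16.

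Levels of different ephrins were compared only per length, as CPM per kb of annotated exon. In EV the order was EFNA2 (69.2 ± 0.0406), EFNB2 (64.9 ± 0.830), EFNB1 (22.6 ± 1.14), EFNA4 (4.54 ± 1.14), EFNA1 (3.86 ± 1.32), EFNA3 (3.44 ± 0.132), EFNA5 (2.19 ± 0.0966) and EFNB3 (1.87 ± 0.0925 CPM per kb; mean ± SD, n = 2). The ranges of EFNA4 and EFNA1 overlapped there, as did those of EFNA1 and EFNA3, so these neighbours did not differ beyond their spread. In WFI the order was EFNB1 (24.4 ± 1.14), EFNA4 (7.79 ± 0.0707), EFNB2 (7.13 ± 0.253), EFNA5 (4.90 ± 0.0746), EFNB3 (2.27 ± 0.210), EFNA3 (1.57 ± 0.0320), EFNA1 (0.849 ± 0.420) and EFNA2 (0 CPM per kb; mean ± SD, n = 2). No neighbours overlapped in WFI. With the longest coding transcript as the length, EFNA1 and EFNA4 changed places in EV.

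The first place of EFNA2 in EV rests on its annotated length. GENCODE 29 gives it 949 bases of exon, while RefSeq places its end 1194 bases further on and the start used for its promoter 281 bases earlier. If both stretches were exon (2424 bases) and the authors' counting covered them, its EV level would be 27.1 CPM per kb, which ranks 2, behind EFNB2. Whether the counting covered them is not known, and the other ephrins kept their GENCODE lengths here.

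Summed per kb, the 8 ephrins came to 173 and 172 in EV, or 131.0 and 130.1 with the longer EFNA2 length, and 49.4 and 48.4 CPM per kb in WFI. Without EFNA2 the sum was 103.9 and 103.0 in EV and 49.4 and 48.4 CPM per kb in WFI. The 4 A-class genes other than EFNA2 summed to 14.3 and 13.7 in EV and 14.8 and 15.4 CPM per kb in WFI, since the gains of EFNA1 and EFNA3 and the losses of EFNA4 and EFNA5 were of like size. EFNB2 made up 37.2% and 38.0% of the family sum in EV and 14.1% and 15.1% in WFI. EFNB1 made up 13.5% and 12.7% in EV and 51.0% and 48.7% in WFI, although its own level differed little. EFNA2 made up 40.0% and 40.2% in EV, or 20.7% and 20.8% with the longer length, which puts EFNB2 at 49.1% and 50.4% and EFNB1 at 17.9% and 16.8% in EV.

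**Figure D3:**
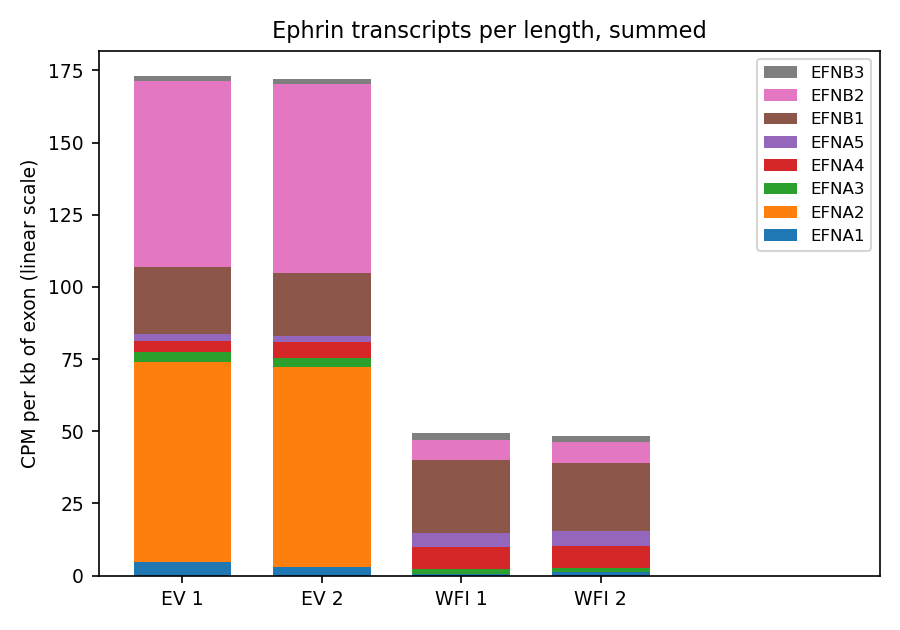
CPM per kb of exon summed over the 8 ephrins in each sample, with EV samples left of WFI samples and 1 colour per gene. The EV bars reach 173 and 172, mostly EFNA2 and EFNB2, and the WFI bars 49.4 and 48.4, mostly EFNB1.

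Promoters of EFNA2 and EFNB2, the ephrins with the widest rise, and of EFNA5, which fell, are shown to set the sequences before their starts side by side. Each is the 250 bases before the start given by RefSeq (GRCh38.p14), in the direction of the gene, with matches to the motifs searched in capitals. RefSeq's table held such a sequence for 7 of the 8 ephrins; EFNB3 is named only.
EFNA2 promoter, chr19:1285623-1285872, plus strand: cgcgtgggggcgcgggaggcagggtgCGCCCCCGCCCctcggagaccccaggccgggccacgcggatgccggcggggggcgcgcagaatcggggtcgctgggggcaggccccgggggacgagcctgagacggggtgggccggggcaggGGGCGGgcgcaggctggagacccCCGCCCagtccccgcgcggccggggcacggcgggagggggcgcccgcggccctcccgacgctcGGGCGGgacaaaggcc
EFNB2 promoter, chr13:106535663-106535912, minus strand: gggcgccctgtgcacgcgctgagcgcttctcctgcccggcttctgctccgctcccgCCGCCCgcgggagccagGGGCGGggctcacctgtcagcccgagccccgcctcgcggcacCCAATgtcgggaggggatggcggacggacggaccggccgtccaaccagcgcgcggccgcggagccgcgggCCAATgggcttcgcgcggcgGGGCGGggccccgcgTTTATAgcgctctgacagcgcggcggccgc
EFNA5 promoter, chr5:107670938-107671187, minus strand: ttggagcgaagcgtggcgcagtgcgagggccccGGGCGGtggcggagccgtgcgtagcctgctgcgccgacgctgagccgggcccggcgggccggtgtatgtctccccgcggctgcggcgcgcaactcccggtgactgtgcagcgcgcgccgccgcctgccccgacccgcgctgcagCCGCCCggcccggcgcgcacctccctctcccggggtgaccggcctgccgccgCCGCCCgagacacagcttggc

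The motifs searched, on both strands, were the GC box GGGCGG, the CCAAT box CCAAT, the TATA box TATAAA, the EGR motif GCGNGGGCG, the AP-1 motif TGANTCA, the cAMP response element TGACGTCA and its partial form TGACG, the E-box CACGTG and the heat shock motif GAANNTTC. The EFNA2 window held 4 GC boxes and 1 EGR match, which overlaps a GC box. EFNB2 had 3 GC boxes, 2 CCAAT boxes and 1 match to the TATA motif, and EFNA5 had 3 GC boxes. The TATA match of EFNB2 lies on the strand opposite to the gene, where it reads TTTATA in the printed sequence. Of 15843 promoters of protein coding genes, 56% held a GC box, 34.5% a CCAAT box, 11.3% an EGR match and 9.23% a TATA box in the same window. The other motifs, held by 2.32% to 25.6% of promoters, matched in none of the 7 ephrin windows. All 3 printed promoters are rich in CpG, with 36 in EFNA2, 40 in EFNB2 and 41 in EFNA5 against a median of 17. The other ephrin windows held 24 CpG in EFNA1, 23 in EFNA3, 17 in EFNA4 and 15 in EFNB1, so neither the ephrins that rose nor those that fell had a like CpG content.

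The nearest protein coding gene on each side of EFNA2 did not share its pattern. FAM174C, 6905 bases away on the side of lower coordinates, had 57.2 and 57.7 CPM in EV and 26.1 and 27.7 CPM in WFI (log2 fold change 1.10, SE 0.08, edgeR adjusted p = 4.47e-07). PWWP3A, 54474 bases away on the other side, had 16.2 and 18.6 CPM in EV and 28.2 and 27.3 CPM in WFI (log2 fold change -0.67, SE 0.11, edgeR adjusted p = 0.000298). Both neighbours were expressed in the WFI samples, and they moved in opposite directions. Of 39 other genes tested within 500 kb of EFNA2, 25 were called higher, 6 lower and 8 not, against 34.5% higher and 31.5% lower over all genes tested, and their median log2 fold change was 0.35. Among them 0 had 0 counts in both WFI samples, against 2.19% of all genes tested. PLPPR3 rose most, from a mean of 0.408 CPM in WFI to 13.8 CPM in EV (log2 fold change 5.06, edgeR adjusted p = 2.96e-08). ARID3A fell most, from a mean of 29.9 CPM in WFI to 13.7 CPM in EV (log2 fold change -1.13, edgeR adjusted p = 6.77e-06).

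**Figure D4:**
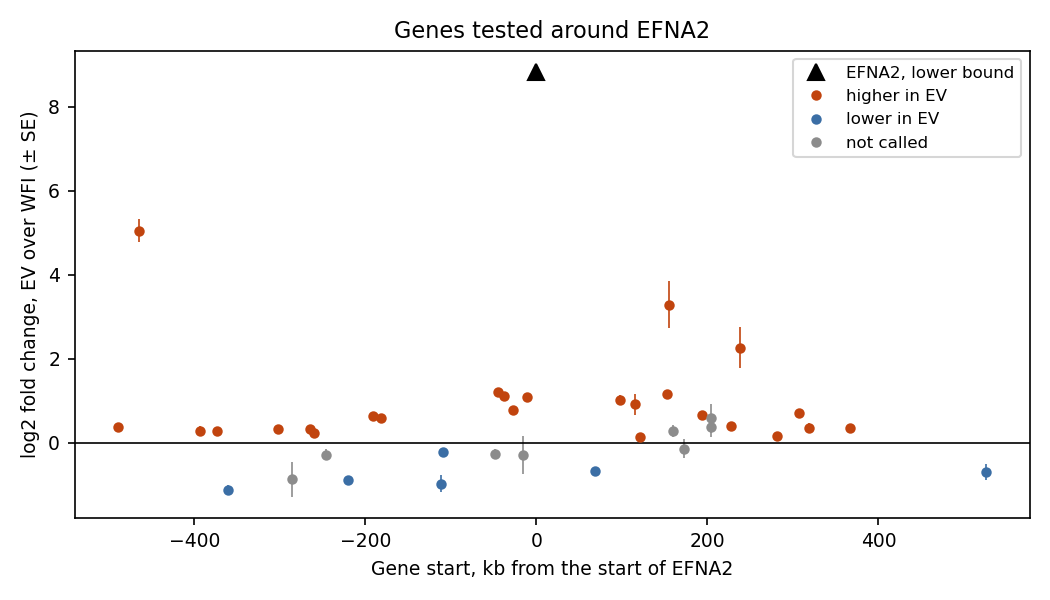
Log2 fold change, EV over WFI, with its standard error, of the 39 genes tested within 500 kb of EFNA2, by the distance of each gene's start from that of EFNA2 in kb. The triangle is the lower bound of EFNA2 on the same scale, 8.83, above every other gene in the window.

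EFNA4, EFNA3 and EFNA1 lie one after the other on the plus strand of chromosome 1 (chr1:155063731-155069553, chr1:155078872-155087538 and chr1:155127460-155134857). In this cluster EFNA4 fell while EFNA3 and EFNA1 rose. A read-through gene, EFNA4-EFNA3, overlaps the first pair on the same strand and is listed with 0 counts in all 4 samples, so reads it shares with them could have been split or left out, and their levels are uncertain. Beside the cluster, ADAM15, a membrane metalloprotease gene 956 bases from EFNA4, had 308 and 311 CPM in EV and 201 and 199.6 CPM in WFI (log2 fold change 0.63, SE 0.04, edgeR adjusted p = 5.72e-08). SLC50A1, a sugar transporter gene 487 bases past EFNA1, had 32.7 and 33.5 CPM in EV and 28.6 and 34.8 CPM in WFI and was not called (edgeR adjusted p = 0.63). ARGLU1, 6011 bases from EFNB2, fell, with 116 and 115 CPM in EV and 171 and 176 CPM in WFI (log2 fold change -0.59, SE 0.04, edgeR adjusted p = 5.86e-07).

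Among the Eph receptors, EPHA2, EPHA4 and EPHB3 rose while EPHB4, EPHB2 and EPHB1 fell. Of 14 receptor genes, 9 passed the filter, of which 4 were called higher, 3 lower and 2 not, against 66% called over all genes tested. Their median log2 fold change was 0.79. EPHA2, the most abundant receptor, had 1046 and 1133 CPM in EV and 414 and 418 CPM in WFI, a 2.62-fold rise (log2 fold change 1.39, SE 0.04, edgeR adjusted p = 1.47e-10). EPHA4, which binds ephrins of both classes, had 125.8 and 123.0 CPM in EV and 25.5 and 24.1 CPM in WFI, a 5.02-fold rise (log2 fold change 2.33, SE 0.06, edgeR adjusted p = 1.53e-10). EPHB3, which helps place cells along the intestinal crypt in mouse, had 15.4 and 16.0 CPM in EV and 3.33 and 2.81 CPM in WFI, a 5.11-fold rise (log2 fold change 2.35, SE 0.18, edgeR adjusted p = 5.57e-07). For these 3 receptors each EV sample was far above each WFI sample.

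EPHB4, the receptor of ephrin-B2, had 43.9 and 47.4 CPM in EV and 93.6 and 89.4 CPM in WFI (log2 fold change -1.001, SE 0.07, edgeR adjusted p = 1.89e-07). Its direction was thus opposite to that of EFNB2. EPHB2, which also binds ephrin-A5, had 52.8 and 57.1 CPM in EV and 77.0 and 80.0 CPM in WFI (log2 fold change -0.52, SE 0.07, edgeR adjusted p = 4.28e-05), a call lost once length and GC trends were removed (-0.03, edgeR adjusted p = 0.712). EPHB1 had 3.02 and 4.54 CPM in EV and 8.55 and 8.25 CPM in WFI (log2 fold change -1.15, SE 0.23, edgeR adjusted p = 0.00126). In all 3, both EV samples lay below both WFI samples.

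The remaining receptors were scarce. EPHA10, a receptor with no kinase activity, had 31 and 15 counts in EV and 7 and 10 in WFI (log2 fold change 1.58, SE 0.61, edgeR adjusted p = 0.0396). Its call was lost with DESeq2 (adjusted p = 0.102), with no count filter (edgeR adjusted p = 0.0826), without WFI replicate 1 (0.248), without WFI replicate 2 (0.134) and without EV replicate 1 (0.294). EPHA1 had 9 and 27 counts in EV and 10 and 13 in WFI, and EPHA3 had 28 and 33 in EV and 18 and 21 in WFI; neither was called (edgeR adjusted p = 0.301 and 0.138). EPHA8 had 10 and 2 counts in EV and 0 in both WFI samples, below the filter. EPHA6, EPHA7 and EPHB6 had at most 9 counts in EV and 0 in WFI, and EPHA5 had 0 in all 4 samples.

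Per kb, EPHA2 was first of the receptors in both groups, with 88.6% and 89.2% of their sum in EV and 79.1% and 79.7% in WFI. EPHA4 came next in EV (16.5 ± 0.258 CPM per kb) and EPHB4 next in WFI (14.2 ± 0.461 CPM per kb; SD, n = 2). EphA receptors made up 94.8% and 94.7% of the receptor sum in EV and 82.0% and 82.5% in WFI. Thus transcripts of EPHA2, an A-class receptor, outweighed all other receptors, while among the ligands the B class held 51.7% and 51.8% of the sum in EV and 70.0% and 68.2% in WFI. That shift of the ligand classes rests on the shorter EFNA2 length, since with the longer one the B class held 68.4% and 68.6% in EV.

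Among genes that carry signals forward from Eph receptors, ROCK1, ROCK2 and AFDN fell while RHOA, CHN1 and GRB7 rose. Of 26 listed, 21 were tested, of which 13 fell, 5 rose and 3 were not called, against 31.5% lower and 34.5% higher over all genes tested. The median log2 fold change of the 21 was -0.48. ROCK2 and ROCK1, kinases through which RhoA contracts the cell cortex, fell to 65.1 ± 2.73 and 81.9 ± 0.938 CPM in EV, against 146 ± 6.99 and 146 ± 4.38 CPM in WFI (SD, n = 2). Their log2 fold changes were -1.16 and -0.83 (edgeR adjusted p = 1.76e-08 and 8.71e-08). AFDN, a junction scaffold that binds Eph receptors, fell by 0.93 on the log2 scale (SE 0.05, edgeR adjusted p = 5.98e-08). With length and GC trends removed, ROCK1 and AFDN kept their calls at smaller log2 fold changes of -0.24 and -0.33. RHOA, CHN1, a Rac inhibitor that acts below EPHA4, and GRB7, an adaptor, rose by log2 fold changes of 0.31, 0.59 and 1.79 (edgeR adjusted p = 1.33e-05, 0.00214 and 0.0038). The RHOA call was lost once length and GC trends were removed (log2 fold change 0.02, edgeR adjusted p = 0.555).

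Among genes that act on the ligand side, in reverse signalling through B-class ephrins, SDCBP and PTPN13 rose while STAT3 and PARD6B fell. Of 14 listed, 13 were tested, of which 7 rose, 2 fell and 4 were not called, against 34.5% higher and 31.5% lower over all genes tested. The 7 include PDZRN3, with 13 and 24 counts in EV and 0 in both WFI samples. It passed the filter through its EV counts alone, so its call adds nothing to the count. The median log2 fold change of the 13 was 0.23. SDCBP, the gene of syntenin, whose PDZ domains bind the tail of B-class ephrins, had 923 and 938 CPM in EV and 405 and 415 CPM in WFI (log2 fold change 1.18, SE 0.03, edgeR adjusted p = 6.9e-11). PTPN13, a phosphatase with PDZ domains that acts on ephrin-B, had 128 and 141 CPM in EV and 44.0 and 42.6 CPM in WFI (log2 fold change 1.63, SE 0.06, edgeR adjusted p = 2.69e-09). In both genes the EV samples stood well above the WFI samples. CNKSR1, a scaffold protein, rose by a log2 fold change of 1.28 (edgeR adjusted p = 0.000263). STAT3 and the polarity gene PARD6B fell, by log2 fold changes of -0.40 and -0.82 (edgeR adjusted p = 7.09e-05 and 0.000369). The STAT3 call was lost once length and GC trends were removed (log2 fold change -0.09, edgeR adjusted p = 0.122).

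Among proteases that cut ephrins or Eph receptors from the cell surface, ADAM10, ADAM17 and ADAM19 fell while MMP9 rose. Of 10 listed, which include subunits of gamma-secretase, 9 were tested, of which 7 fell, 1 rose and 1 was not called, against 31.5% lower and 34.5% higher over all genes tested. The median log2 fold change of the 9 was -0.41, and MMP2, below the filter, had 1 and 5 counts in EV and 1 and 0 counts in WFI. ADAM10, which sheds ephrins bound by Eph receptors, had 75.7 and 80.2 CPM in EV and 144.0 and 143.5 CPM in WFI (log2 fold change -0.88, SE 0.05, edgeR adjusted p = 6.76e-08). Once length and GC trends were removed it fell short of the threshold (log2 fold change -0.12, edgeR adjusted p = 0.0511). ADAM19 and ADAM17 fell by 1.12 and fell by 1.05 on the log2 scale (edgeR adjusted p = 4.22e-07 and 4.28e-06). MMP9, a secreted gelatinase, had 5.54 and 7.16 CPM in EV and 2.22 and 1.77 CPM in WFI (log2 fold change 1.67, SE 0.28, edgeR adjusted p = 0.000328). RHBDL2, a rhomboid protease that cuts ephrin-B3, was not called (edgeR adjusted p = 0.197).

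**Figure D5:**
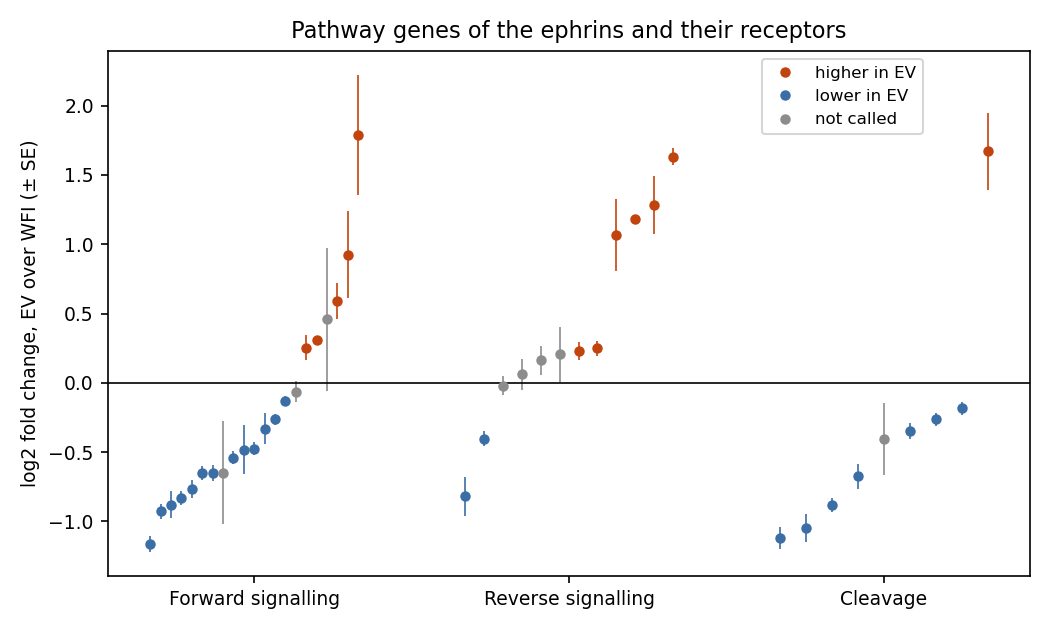
Log2 fold change, EV over WFI, with its standard error, of the tested genes of forward signalling, reverse signalling and cleavage, sorted within each list; PDZRN3, with 0 counts in both WFI samples, is left out. Blue points (lower in EV) are 13 in forward signalling, 2 in reverse signalling and 7 in cleavage; orange points (higher) include MMP9 at the far right.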

How the data were processed

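Total RNA of HT1376 cells was sequenced from a directional library kit, per the labels' protocols. The authors deposited raw counts per Ensembl gene, whole numbers in 1 column per sample, on hg38 per the submitters' processing notes. The aligner, like the counter, its use of strand and the annotation, is not given in the sources used here. Reads of a gene and an antisense partner may not be told apart. Symbols and lengths came from GENCODE 29 (61757 of 61860 identifiers matched) and promoters from RefSeq GRCh38.p14, with 250 bases before each start.

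From the counts, edgeR 4.0.16 (R 4.3.3) gave TMM library sizes, the default filter of filterByExpr, and a quasi-likelihood test with the group as its only term, adjusted by Benjamini-Hochberg over 17465 genes, with calls at adjusted p under 0.05. SE is the absolute log2 fold change over the square root of F. CPM per kb used merged exons. Fold bounds for genes at 0 used 3 counts per library; intervals and floors cover counting error only. Replicate counts varied beyond sampling noise (chi-square over its degrees of freedom 4.72 in EV and 2.25 in WFI), so none was counted as a duplicate.

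Members and gene lists were chosen with earlier results of these data known. Named genes were all ephrins and NECTIN4, receptors with 10 or more counts in a sample, up to 3 members in each direction with the smallest adjusted p in each other list, the nearest protein coding genes of each ephrin, and the 3 profiles closest to EFNA2 (log2 CPM, prior count 0.5). Outside this rule, some cell type markers and the genes with the widest rise and fall within 500 kb of EFNA2 are also named. The 12 alternatives comprised RLE and upper quartile scaling, DESeq2 1.42.0, no count filter, a filter of 50 counts in 2 samples, the replicate number as a block, offsets for length and GC content without and with that block (17073 genes), and leaving out each sample.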

Additional observations from a re-analysis of the deposited data

How the results depend on the processing

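EFNA1, EFNA3, EFNA4, EFNA5 and EFNB2 kept direction and call under all 12 alternatives, with log2 fold changes of 1.72 to 2.77, 0.68 to 1.18, -1.29 to -0.55, -1.24 to -1.10 and 3.11 to 3.24. With length and GC offsets 4 ephrins were called lower instead of 2, without and with the replicate block, since EFNB1 (-0.3957, and -0.3955 with the block) and EFNB3 (-0.5545, and -0.5521 with the block) passed the threshold; EFNB1 also passed with no count filter (-0.185). Under the same offsets 1 gene of reverse signalling fell, without and with the block, and 2 cleavage genes rose without it. The EFNA2 bound was 462-fold with RLE scaling, 474-fold with upper quartile scaling, 433-fold with no count filter, 471-fold with the filter of 50 counts, and 443-fold to 453-fold without each sample in turn. With no count filter the median log2 fold change of all genes was 0.24.

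The genes whose value changed sign had no call in the main test, though SLC50A1 (lower with offsets and block, edgeR adjusted p = 0.0349), FBXL17 (lower without EV replicate 2, 0.0354) and ENSG00000284966 (higher without EV replicate 1, 0.0466) were called under an alternative. The log2 fold change of EPHA1 ran from -0.17 to 1.31 when each sample was left out in turn, and that of ENSG00000284966 from -0.14 to 1.27, the lowest without EV replicate 2 in both. SLC50A1 was at -0.014 with no count filter, -0.2505 with length and GC offsets, -0.246 with offsets and block, and between -0.11 and 0.18 without each sample in turn, lowest without WFI replicate 1. FBXL17 was at 0.0096 with upper quartile scaling, 0.0008 with the filter of 50 counts, 0.2125 with offsets, 0.2028 with offsets and block, and between -0.28 and 0.13 without each sample in turn, highest without EV replicate 1. The NECTIN4 call was lost with DESeq2 (adjusted p = 0.0589), without WFI replicate 1 (edgeR adjusted p = 0.136) and without WFI replicate 2 (0.150). The causes were not tested.

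Replicate numbers did not pair the samples by any label, and deviations of same-numbered samples correlated at 0.016. With the replicate block 5957 genes were called higher and 5573 lower, against 6019 and 5509 without it, and EPHA10 lost its call (edgeR adjusted p = 0.0732). With 2 samples per group, no ephrin call rests on more than 2 values a side. The receptors below the filter were too scarce at this depth and were not tested.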

Other observations

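Around EFNB3, both neighbours were called higher, while EFNB3 itself was not called. DNAH2, an axonemal dynein gene 5976 bases from EFNB3, had 4.99 and 5.46 CPM in EV and 0.193 and 0.0477 CPM in WFI (log2 fold change 5.37, SE 0.50, edgeR adjusted p = 3.4e-06). Its log2 fold change was 6.57 without WFI replicate 1, 4.68 without WFI replicate 2 and 6.07 with length and GC trends removed. WRAP53, whose protein guides telomerase to Cajal bodies, lies 1700 bases away on the other side and rose by a log2 fold change of 1.14 (edgeR adjusted p = 4.86e-07). Of 57 genes tested within 500 kb of EFNB3, 35 were called higher, 10 lower and 12 not, against 34.5% higher and 31.5% lower over all genes tested. Around EFNA5 a single gene was tested in the same distance, and it was not called.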
